A study of Mus musculus with 16 samples.

Results

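The mRNA of 9 receptors with which bone marrow cells leave, enter and hold their niche was followed across cell types and across 4 groups of mice. The genes are Cxcr4, Cxcr2, Ccr2, Selplg, Cd44, Itga4, Itga6, Itgal and Itgam, taken by symbol from the 27998 rows of the gene list shared by all 8 mRNA libraries. They occupy 10 rows, because the symbol Itgam stands on 2 rows, and the values below are for the row of the Itgam gene itself unless stated. The libraries hold unique molecular identifiers (UMIs, one for each captured mRNA molecule) of single cells from lineage-depleted bone marrow of C57BL/6 mice aged 6 to 12 weeks. WT mice were Tet2fl/fl without Cre, and Tet2-KO mice were Vav-Cre Tet2-/-, in which Cre is driven by the pan-hematopoietic Vav promoter, so the Cre transgene and the loss of Tet2 cannot be told apart. Mice of each genotype received the inflammatory cytokine IL1β at 500 ng per mouse per day into the peritoneum, or vehicle, for 5 weeks. Each of the 4 groups (WT vehicle, WT IL1β, Tet2-KO vehicle, Tet2-KO IL1β) had 4 mice, and each library pooled 2 hashtagged mice of 1 group, so each group came from 2 pools, and the mice of a pool share a library.

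CXCR4 is the receptor for CXCL12, the stromal chemokine that retains stem cells, progenitors and maturing neutrophils in the marrow, while CXCR2 answers the ELR chemokines that draw neutrophils out and CCR2 is required for monocytes to leave for the blood. Selplg encodes PSGL-1, the main selectin ligand for rolling on vessel walls, and CD44 binds hyaluronan and, in some glycoforms, E-selectin. Itga4 pairs with Itgb1 to bind VCAM1, Itga6 gives the laminin receptors and marks stem cells and megakaryocytes, and Itgal and Itgam pair with Itgb2 to give LFA-1 and Mac-1, the integrins of lymphocytes and of mature myeloid cells.

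In GRCm38, Cxcr4 lies at chr1:128588199-128592293 on the minus strand and Cxcr2 at chr1:74153989-74161246 on the plus strand. Ccr2 lies at chr9:124101950-124113557 (plus) and Selplg at chr5:113818536-113832644 (minus). Chromosome 2 carries Cd44 at chr2:102811141-102901665 (minus), Itga4 at chr2:79255426-79333123 (plus) and Itga6 at chr2:71745616-71858416 (plus). Itgal and Itgam share chromosome 7, at chr7:127296260-127335138 and chr7:128062640-128118491, both on the plus strand. The other row with the symbol Itgam is ENSMUSG00000108596, named Gm49368 in the GENCODE annotation, which overlaps Itgam on the same strand at chr7:128062683-128128160, so reads of the shared part could not be assigned to either. It held 528 UMIs against 16195 for Itgam over all kept cells, and its highest mean level was in neutrophil-like cells. Every row is annotated as protein coding.

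RefSeq start-site windows of GRCm38.p6, from 250 bases before to 50 bases after the start, were at hand for 6 of the 9 genes (Ccr2, Cd44, Cxcr2, Cxcr4, Itga4 and Itgam). The windows of the 3 receptors with the most calls among these 6 are printed for reference, 5′ to 3′ on the gene's strand, with motif matches on either strand in capitals. The motifs searched were GAGGAA (a core bound by PU.1), AGATAA (by GATA factors), TGTGGT (by RUNX factors), GGGCGG (by Sp1) and TATAAA (by the TATA-binding protein). Cxcr4 is at chr1:128592250-128592549 (minus), Ccr2 at chr9:124101933-124102232 (plus) and Itgam at chr7:128062390-128062689 (plus).
Cxcr4: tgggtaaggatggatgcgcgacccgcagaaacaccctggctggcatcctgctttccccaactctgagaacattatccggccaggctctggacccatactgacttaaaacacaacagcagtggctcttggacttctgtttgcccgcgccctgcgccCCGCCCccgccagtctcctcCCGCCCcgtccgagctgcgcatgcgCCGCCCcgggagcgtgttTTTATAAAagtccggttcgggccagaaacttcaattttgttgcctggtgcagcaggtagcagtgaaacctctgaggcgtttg
Ccr2: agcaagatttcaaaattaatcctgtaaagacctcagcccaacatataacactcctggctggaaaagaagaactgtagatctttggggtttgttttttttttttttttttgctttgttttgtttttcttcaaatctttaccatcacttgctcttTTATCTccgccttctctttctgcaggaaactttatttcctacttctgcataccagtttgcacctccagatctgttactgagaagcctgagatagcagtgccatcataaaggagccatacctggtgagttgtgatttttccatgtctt
Itgam: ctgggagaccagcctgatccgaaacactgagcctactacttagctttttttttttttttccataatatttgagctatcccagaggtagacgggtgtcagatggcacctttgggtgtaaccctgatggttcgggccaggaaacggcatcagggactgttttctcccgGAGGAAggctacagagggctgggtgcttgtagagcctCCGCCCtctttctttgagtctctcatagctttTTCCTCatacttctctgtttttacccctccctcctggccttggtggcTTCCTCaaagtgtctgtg
The Cxcr4 window held GGGCGG on the opposite strand at 3 places, 95, 75 and 50 bases before the start, and TATAAA and its reverse complement overlapping at 30 and 32 bases before it. The Itgam window held GAGGAA 3 times, on both strands, and GGGCGG once, while the Ccr2 window held AGATAA once on the opposite strand. Over 32851 mouse windows of the same length, 28.3% held GAGGAA, 11.2% AGATAA, 16.8% TGTGGT, 35.7% GGGCGG and 13.6% TATAAA, so each match is common and is given as a description.

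Of 121405 deposited barcodes, 94917 passed the limits on genes and mitochondrial reads, 57896 were assigned to 1 mouse and 36354 of those (62.8%) met the marker gate of exactly 1 of 18 cell types. Cells per mouse ranged from 698 to 6432 and UMIs per mouse from 4388604 to 44152768, and 1061 barcodes occurred in more than 1 library. None of the 9 receptors was a gate gene. Of 113 pairs of a type and a check gene that did not gate it, 109 were higher in that type than in the rest of the cells. The exceptions were Ctsg and Prtn3 in IMP-like, Fcgr3 in MonoP-like and Alox15 in Eos-like cells. Of the 113, 71 had their highest level of all 18 types there (0 of 5 in MonoP-like cells). Some check genes, such as Flt3, Irf8, Csf1r and Klf1, were gate genes of another type. The types are named after their markers: HSC-like, multipotent (MPP-like), immature myeloid (IMP-like), granulocyte (GranP-like), monocyte (MonoP-like), megakaryocyte (MegP-like), megakaryocyte-erythroid (MEP-like) and common lymphoid (CLP-like) progenitors, monocytes (Mono-like), class II (cDC-like) and plasmacytoid (pDC-like) dendritic cells, neutrophils (Neut-like), basophils (Baso-like), eosinophils (Eos-like), CFU-E-like and erythroblast-like (EryB-like) red cell precursors, NK and T cells (NKT-like) and plasma cells (Plasma-like). Because the marrow was lineage-depleted, the mature types are what the depletion left.

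Levels are UMIs of the gene per 1e+06 UMIs of a mouse and type (CPM), over all mice of the 4 groups with at least 10 cells of the type, and types were ordered by mean log2(CPM + 1). Of the 153 pairs of neighbours in the 9 orders, 20 differed in an exact or 100000-draw permutation test on paired differences within mice (two-sided, adjusted over the 153 pairs), so most positions within an order are not resolved. CLP-like cells reached the cell limit in only 6 mice, all given vehicle, too few for any pair with them to pass this adjustment. Differences between types in UMIs of one gene are relative to the total mRNA of each type.

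Cxcr4 was detected in each mouse in all 18 types and was highest in Baso-like cells, at 215 CPM in the lowest mouse, 361 at the median and 623 in the highest (mean 375 ± 102, SD, n = 16). Mono-like cells followed (median 286 CPM, range 220 to 488, n = 15), below Baso-like cells in 14 of 15 mice (adjusted p = 0.0039, permutation test). MonoP-like cells had a median of 208 CPM, GranP-like cells 110 CPM, and HSC-like cells 81.0 CPM (range 40.5 to 163). At the bottom, CFU-E-like cells had 32.8 CPM, with 29.1% of cells holding a UMI against 71.7% of Baso-like cells, and EryB-like cells were above MegP-like cells in 11 of 12 mice (adjusted p = 0.024, permutation test).

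Ccr2 was led by cDC-like cells (median 846 CPM, range 199 to 1240, n = 14) and Mono-like cells (median 744 CPM, range 357 to 862, n = 15), which did not differ beyond their spread (mean log2 difference 0.20 ± 0.20, SE, higher in 10 of 14 mice, adjusted p = 0.76, permutation test). Mono-like cells exceeded pDC-like cells in 9 of 9 mice (adjusted p = 0.033, exact test). Below pDC-like (279 CPM), MonoP-like (278 CPM) and NKT-like cells (297 CPM), the level dropped to 88.0 CPM in IMP-like cells, lower in 14 of 14 mice (adjusted p = 0.0031, permutation test), and again to Baso-like cells in 16 of 16 mice (adjusted p = 0.0031). GranP-like cells had a median of 43.6 CPM and HSC-like cells 6.62 CPM, with 4 of 16 mice at 0. A Ccr2 UMI was found in 88.4% of Mono-like and 22.1% of GranP-like cells, against 5.80% of CFU-E-like cells. The latter are red cell precursors not known for the receptor, and their share, at a median depth of 11370 UMIs per cell, is a guide to free RNA.

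Cxcr2 was sparse, with 6767 UMIs over all kept cells, and only its top 4 types were separated. Neut-like cells had a median of 84.1 CPM (range 13.99 to 145, n = 15), above Baso-like cells in 12 of 15 mice (46.1 CPM, adjusted p = 0.041, permutation test). Baso-like cells were above IMP-like cells in 13 of 16 mice (18.0 CPM, adjusted p = 0.012), and IMP-like above HSC-like cells in 12 of 16 (7.01 CPM, adjusted p = 0.033). A UMI was seen in 29.1% of Neut-like cells at a median depth of 3710 UMIs, in 13.1% of Baso-like cells and in 9.88% of IMP-like cells. CFU-E-like cells had 3.56% at a median depth of 11370 UMIs and HSC-like cells 2.58% at 2750. The latter share is not read as expression, and since the depths differ so much no order is read from these shares.

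Selplg followed the mature mononuclear types: pDC-like (median 639 CPM), cDC-like (499 CPM), Mono-like (434 CPM) and NKT-like cells (384 CPM) had the top 4 places. NKT-like cells exceeded MonoP-like cells (222 CPM) in 13 of 14 mice (adjusted p = 0.0097, permutation test), and the 3 steps above them were not resolved (adjusted p from 0.19 to 0.27, permutation or exact test). The level was 67.8 CPM in GranP-like cells (range 55.3 to 84.0) and 7.90 CPM in MegP-like cells. GranP-like cells were above EryB-like cells in 10 of 12 mice (adjusted p = 0.031) and CFU-E-like above MegP-like cells in 14 of 16 (adjusted p = 0.0067).

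Cd44 was the most evenly spread of the receptors across types on this scale: medians ran from 51.6 CPM in Baso-like to 185 CPM in Mono-like cells. CLP-like (179 CPM, n = 6, all vehicle mice), Mono-like, Neut-like (182 CPM), Plasma-like (167 CPM) and MPP-like cells (172 CPM) headed the order without resolved steps. EryB-like cells were above Baso-like cells in 10 of 12 mice (adjusted p = 0.033, permutation test), and CFU-E-like above GranP-like cells in 14 of 16 (adjusted p = 0.037). The 3′ tags do not separate the splice forms of this gene.

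Among the integrin chains, Itga4 was detected in each mouse in all types, from 74.4 CPM in MegP-like cells to 344 CPM in CLP-like cells (n = 6, all vehicle mice). The other high types were MEP-like (317 CPM), EryB-like (302 CPM) and NKT-like cells (310 CPM), and no step between neighbours at the top was resolved. HSC-like cells (220 CPM) were above Mono-like cells in 12 of 15 mice (adjusted p = 0.032, permutation test), and IMP-like cells (157 CPM) above Baso-like cells in 14 of 16 (adjusted p = 0.0068).

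Itga6 had the reverse end of the order for MegP-like cells. It was highest there (median 366 CPM, range 221 to 1650, n = 16, the top value in a WT vehicle mouse), above HSC-like cells in 16 of 16 mice (146 CPM, adjusted p = 0.0031, permutation test). HSC-like cells were in turn above MEP-like cells in 12 of 13 mice (82.5 CPM, adjusted p = 0.0097). MPP-like cells had 53.6 CPM and GranP-like cells 52.6 CPM, while CFU-E-like, CLP-like, Plasma-like and EryB-like cells were at 16.6 CPM or less at the median. Over the 18 types of the WT vehicle mice, the mean log2 levels of Itga4 and Itga6 had a Pearson correlation of -0.56, given as a description.

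Itgal was led by NKT-like (median 255 CPM) and Plasma-like cells (217 CPM), with no resolved step between them (adjusted p = 0.14, permutation test). Plasma-like cells exceeded Baso-like cells in 16 of 16 mice (135 CPM) and Baso-like cells exceeded Mono-like cells in 15 of 15 (93.7 CPM, adjusted p = 0.0031 for both). GranP-like (30.1 CPM) and HSC-like cells (31.9 CPM) were low, and MegP-like cells had 3.42 CPM with 6 of 16 mice at 0.

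Itgam was concentrated in Neut-like cells, at 205 CPM in the lowest mouse, 364 at the median and 587 in the highest. Mono-like cells, next in order, had a median of 63.8 CPM and were lower in 14 of 14 mice (mean log2 difference 2.85 ± 0.47, SE, adjusted p = 0.0038, permutation test), and no other neighbours were separated. A UMI was found in 79.0% of Neut-like cells and in 19.0% of GranP-like cells, against 2.87% of CFU-E-like cells.

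**Figure D1:**
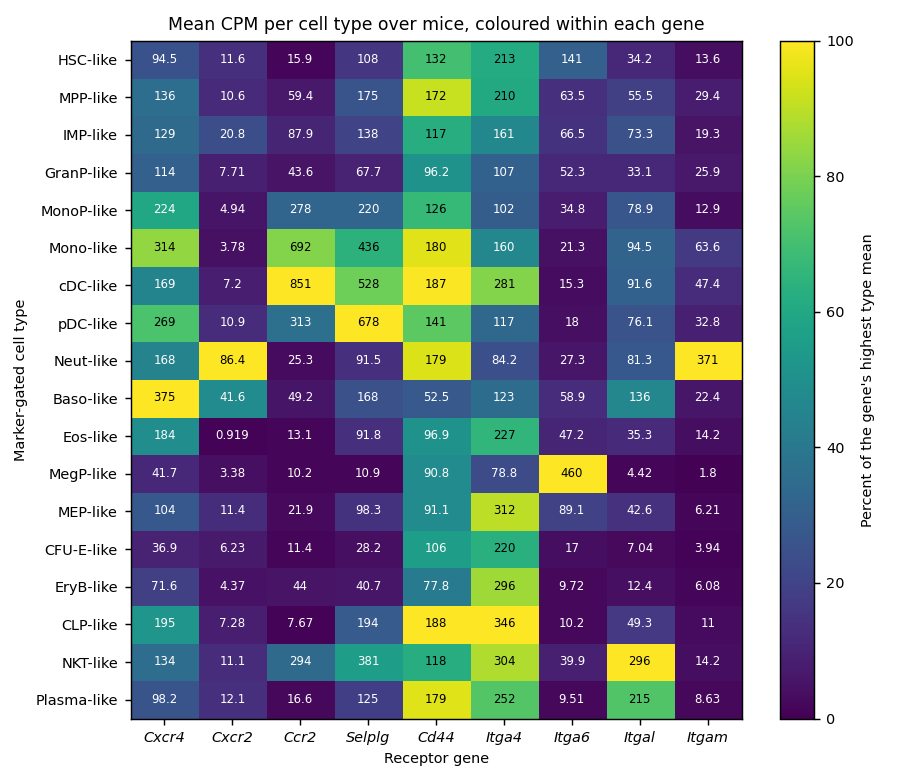
Heat map of the mean CPM (printed in each cell) of the 9 receptors (columns) in the 18 marker-gated cell types (rows) over all mice with at least 10 cells, coloured as a percent of each gene's highest type mean. Itgam stands out in Neut-like cells (371), Itga6 in MegP-like cells (460), Ccr2 in cDC-like and Mono-like cells (851 and 692) and Cxcr4 in Baso-like cells (375), while Cd44 and Itga4 are spread over many rows.

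The genes whose level followed each receptor most closely over the 18 types in WT vehicle mice were found among 9173 genes by Pearson correlation of mean log2 levels. They were Fam107b (0.90), Lcp1 and Rac2 for Cxcr4, Ms4a4c (0.94), S100a4 and Pid1 for Ccr2, and Lcn2 (0.81), Plk3 and Klf5 for Cxcr2. Selplg was followed by Gng2 (0.94), Klf4 and Arhgap30, and Cd44 by Snx9 (0.87), Mef2c and Abcb1b. Otud5 (0.81), Acss1 and Mier1 were closest to Itga4, Pla2g4a (0.87), Tmem40 and P2rx1 to Itga6, Cd53 (0.93), Cd52 and Mirt1 to Itgal, and B430306N03Rik (0.92), Sorl1 and Gmip to Itgam. Among the receptors themselves, Selplg and Itgal (0.80), Ccr2 and Selplg (0.73) and Cxcr4 and Itgal (0.72) were most alike. The common partner chain Itgb2 had a correlation of 0.56 with Itgam and 0.40 with Itgal, and Itgb1 had 0.02 with Itga4 and 0.23 with Itga6. All types come from the same mice and libraries, so these values describe the order of types and carry no test.

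The effect of IL1β was compared within each genotype on UMIs summed per mouse and type, with edgeR's quasi-likelihood test, 1 fit of all 16 mice per type and Benjamini-Hochberg adjustment over all genes of the type. Values from here on are CPM after TMM scaling (normalised CPM) per mouse, and a gene is said to rise or fall only at an adjusted p under 0.05. Of the 18 types, 15 had enough mice, and the 9 receptors gave 108 tests of a gene in a type. A gene was tested in a type only past a filter on low counts, which it can pass through the mice of 1 group alone. With IL1β, 22 of the 108 were called in Tet2-KO mice (20.4%), 21 higher and 1 lower, where 11.5% of all 90976 gene and type tests were called, 4.95% higher and 6.56% lower. In WT mice 6 were called (5.56%), all higher, where 8.58% of all tests were called, 3.43% higher and 5.15% lower. The median log2 fold change over the 108 was 0.39 in Tet2-KO and 0.30 in WT mice, with 90 and 78 above 0, while the medians over all genes of a type lay between 0.00 and 0.04 in both. The 9 receptors are one small list, and these shares describe it.

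The scaling matters for the direction. Without TMM the median of all genes moved by 0.07 to 0.22 on the log2 scale with IL1β in WT and by -0.02 to 0.17 in Tet2-KO mice, and the share of all calls that were higher went from 40.0% to 71.9% and from 43.0% to 67.6%. For the receptors, the calls with IL1β went from 6 to 19 in WT and from 22 to 26 in Tet2-KO mice under that scaling, and of the 30 calls reported here over all comparisons 2 were lost and none changed direction. Of all 90976 tests, 6987 rose and 2733 fell in WT mice without TMM, against 3124 and 4684 with it. In Tet2-KO mice 7769 rose and 3727 fell without TMM, against 4500 and 5972 with it. The counts also rest on single mice, with 3 WT calls without WT vehicle mouse 1, and in Tet2-KO mice 10 calls without vehicle mouse 4, 12 without vehicle mouse 3 and 14 without IL1β mouse 1 or 2. GranP-like cells carried 3 of the WT calls (of 9 receptors, where 27.6% of all genes were called) and 7 of the Tet2-KO calls (of 9, where 39.2% were called). MonoP-like cells carried 4 of the Tet2-KO calls (of 8, where 14.4% were called).

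Each call was repeated under 10 alternatives and with each of the 16 mice left out, and a call is described as lost where its adjusted p no longer passed. The alternatives were DESeq2, no filter on low counts, library totals without TMM, the mouse number as a block (replicate block), the place of the pool in its group (mice 1 and 2, or 3 and 4) as a block, the pool as a random block in limma, the 8 pools as replicates, a hashtag share rule (at least 75% of a cell's hashtag UMIs), stricter gates (doubled UMI minimums) and cells without the deepest (above the 95th percentile). The fit of the 8 pools also took in cells without a hashtag, which the main fit left out, so it changed the cells as well as the unit. Of the 30 calls 4 were kept throughout, those of Itga6 in GranP-like cells of both genotypes, Ccr2 in GranP-like cells of WT mice and Itga6 in MonoP-like cells of Tet2-KO mice, and 11 were kept with each mouse left out.

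**Figure D2:**
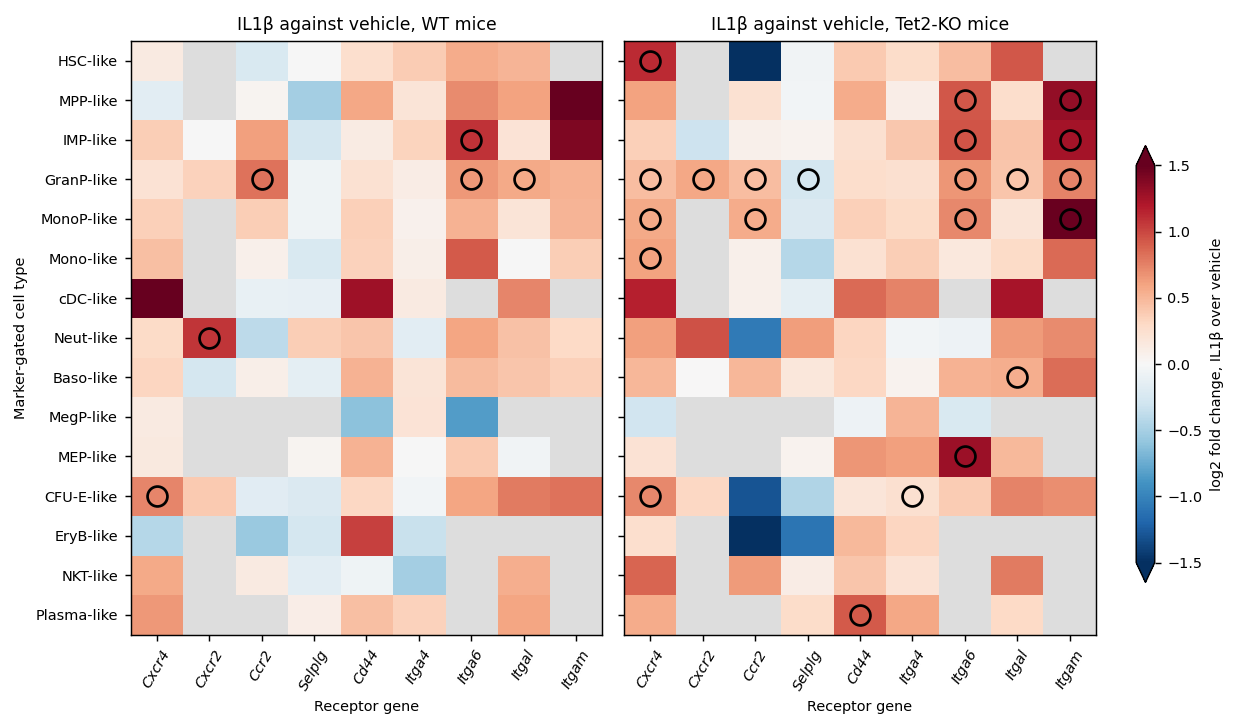
Heat maps of the fitted log2 fold change with IL1β over vehicle for the 9 receptors (columns) in the 15 tested types (rows) in WT (left) and Tet2-KO mice (right), red for higher and blue for lower, with calls circled and untested pairs in grey. The 6 WT calls and 21 of the 22 Tet2-KO calls are higher with IL1β, and Selplg in GranP-like cells of Tet2-KO mice is the one that is lower.

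Cxcr4 rose with IL1β in 5 types in Tet2-KO mice (HSC-like, GranP-like, MonoP-like, Mono-like and CFU-E-like) and in 1 type, CFU-E-like, in WT mice. In HSC-like cells the 4 Tet2-KO mice given vehicle had 79.1, 58.5, 44.9 and 77.1 normalised CPM, and the 4 given IL1β had 77.0, 161, 127 and 161. All but 1 of the IL1β mice were above every vehicle mouse, and mouse 1 lay among them. The log2 fold change was 1.12 ± 0.23 (SE, adjusted p = 0.0038, edgeR), and the call was kept with any 1 mouse left out but lost with stricter gates. In 1 draw of counts simulated for HSC-like cells of Tet2-KO mice, 8.89% of the genes called were false, where 5% is aimed at. The draw held no pool effect, so it cannot give the share of false calls in these data. In WT mice the HSC-like values were 102, 164, 91.4 and 82.4 with vehicle and 98.9, 52.3, 132 and 77.3 with IL1β. These groups overlapped in part, with 2 IL1β mice below every vehicle mouse and 1 vehicle mouse above every IL1β mouse. The fitted log2 fold change was 0.13 ± 0.26 although the plain mean was lower with IL1β (90.2 against 110), since the fit weights mice by depth. The difference between the genotypes in the response, 0.99 ± 0.35 on the log2 scale, had the smallest p of the 108 interaction tests (unadjusted p = 0.0080) and did not pass adjustment (adjusted p = 1.00, edgeR). The summed level of 4 mature neutrophil markers (Mmp9, Retnlg, Il1b, Csf3r, none at 0) in these HSC-like cells ranged from 18.1 to 201 CPM in Tet2-KO vehicle and from 87.2 to 129 CPM in Tet2-KO IL1β mice. The WT ranges were 33.2 to 734 and 374 to 1359 CPM. Of the HSC-like check genes, Gata2 rose in Tet2-KO mice (0.73 ± 0.17, adjusted p = 0.0098). The part of these genes in the result was not tested.

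In GranP-like cells Cxcr4 was 94.4, 89.8, 107 and 96.3 in Tet2-KO vehicle and 134, 148, 120 and 132 in Tet2-KO IL1β mice. The groups did not overlap, and the log2 fold change was 0.46 ± 0.13 (adjusted p = 0.0098, edgeR), lost only with the 8 pools as replicates. WT mice had 75.3, 128, 109 and 103 with vehicle and 90.5, 111, 134 and 143 with IL1β, a change of 0.22 ± 0.14 that was not called. The neutrophil marker sum in GranP-like cells ranged from 45.6 to 145 CPM in Tet2-KO vehicle and from 113 to 246 CPM in Tet2-KO IL1β mice. MonoP-like cells of Tet2-KO mice went from 198, 163, 223 and 199 to 375, 277, 239 and 291, again without overlap (0.57 ± 0.16, adjusted p = 0.016), lost with the pools as replicates and without Tet2-KO IL1β mouse 1 (adjusted p = 0.065). The sum of 6 endothelial and stromal markers (Cdh5, Kdr, Lepr, Col1a1, Pdgfrb and Emcn, 1 at 0) in these MonoP-like cells ranged from 7.48 to 17.5 CPM with vehicle and from 17.35 to 30.1 CPM with IL1β. In Mono-like cells the range moved from 240 to 304 up to 326 to 484 (0.61 ± 0.14, adjusted p = 0.031). This call was lost with the pools as replicates, the hashtag share rule or stricter gates, and without any 1 of Tet2-KO IL1β mice 1, 2 and 3 or vehicle mice 3 and 4 (adjusted p up to 0.11). CFU-E-like cells, where Cxcr4 is lowest, rose by the same amount in both genotypes. Their WT values were 20.0, 32.4, 36.3 and 24.6 with vehicle and 31.4, 56.0, 40.6 and 64.2 with IL1β (0.73 ± 0.20, adjusted p = 0.015). The Tet2-KO values were 27.3, 26.0, 23.8 and 25.2 against 50.6, 51.0, 40.0 and 32.6 (0.73 ± 0.19, adjusted p = 0.014). The groups overlapped in WT and did not in Tet2-KO mice. The WT call was lost without any 1 of WT IL1β mouse 2 or vehicle mice 1 and 4 (adjusted p up to 0.11), and the Tet2-KO call without any 1 of IL1β mouse 2 or vehicle mice 3 and 4 (adjusted p up to 0.082). In cDC-like cells the fitted changes were larger, 1.64 ± 0.37 in WT and 1.17 ± 0.40 in Tet2-KO mice, but rested on 43 to 93 UMIs per group and were not called (adjusted p = 0.10 and 0.33, edgeR). Of the 7 CFU-E-like check genes, Tfrc rose in both genotypes, Blvrb fell in both, and Rhd and Cldn13 fell in Tet2-KO mice. The sum of 6 macrophage markers (C1qa, C1qb, C1qc, Adgre1, Cd5l and Mrc1, 2 at 0) in CFU-E-like cells was 0.00 to 0.50 CPM in WT vehicle and 0.77 to 1.91 CPM in WT IL1β mice. The part of these marker and check genes in the Cxcr4 results was not tested.

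Ccr2 was the one receptor called between genotypes as well as with IL1β, and in 1 type, GranP-like cells. WT vehicle mice had 24.8, 15.9, 18.4 and 29.2 normalised CPM, WT IL1β mice 39.9, 38.6, 43.6 and 41.5, Tet2-KO vehicle mice 54.2, 46.3, 36.6 and 47.0, and Tet2-KO IL1β mice 74.1, 49.8, 64.3 and 66.3. Every WT vehicle mouse was below every other mouse, and only the Tet2-KO vehicle and IL1β groups overlapped within a genotype. The log2 fold change with IL1β was 0.82 ± 0.16 for WT mice (adjusted p = 0.0011, edgeR), a call kept under every alternative. The neutrophil marker sum in the same cells also did not overlap between the WT groups (57.9 to 135 with vehicle and 139 to 175 CPM with IL1β), and its part in the result was not tested. In Tet2-KO mice the change was 0.47 ± 0.13 (adjusted p = 0.0095), lost only with stricter gates. Tet2-KO exceeded WT mice by 0.99 ± 0.16 with vehicle (adjusted p = 0.0099) and by 0.64 ± 0.13 with IL1β (adjusted p = 0.050, just under the limit). The former call was lost without WT vehicle mouse 3 (adjusted p = 0.058), with the pool as a random block, with the pools as replicates and with stricter gates. The latter was lost under 5 alternatives, those 3, library totals without TMM and without the deepest cells. It did not survive without any 1 of 10 mice, namely WT IL1β 1, 2, 3 and 4, WT vehicle 1, Tet2-KO vehicle 2 and 4 and Tet2-KO IL1β 1, 3 and 4 (adjusted p up to 0.20). In MonoP-like cells of Tet2-KO mice Ccr2 rose from 327, 298, 217 and 202 to 431, 282, 427 and 398 (0.56 ± 0.16, adjusted p = 0.019), with the IL1β mouse at 282 inside the vehicle range. That call was lost with the pools as replicates and without any 1 of Tet2-KO IL1β mice 1 and 3 or vehicle mice 3 and 4 (adjusted p up to 0.094), and the WT change, 0.37 ± 0.17, was not called (adjusted p = 0.15). In Mono-like cells, where Ccr2 is high, the change was 0.07 ± 0.21 in WT and 0.08 ± 0.19 in Tet2-KO mice. Fitted changes below -1 occurred in Tet2-KO mice in types with little Ccr2, such as HSC-like (27 UMIs with vehicle against 7 with IL1β, adjusted p = 0.096) and CFU-E-like cells (140 against 62 UMIs, adjusted p = 0.067), and none was called.

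Cxcr2 was tested in 5 types and rose in Neut-like cells of WT mice and in GranP-like cells of Tet2-KO mice. Neut-like cells of WT mice had 30.4, 45.3, 70.8 and 43.5 with vehicle and 113, 103, 69.3 and 109 with IL1β, with 1 value of each group in the range of the other (1.07 ± 0.30, adjusted p = 0.037, edgeR). Tet2-KO vehicle mice had 97.3, 76.7 and 15.4, the fourth having fewer than 10 such cells and being left out of the fit, and IL1β mice had 130, 155, 150 and 133. The groups did not overlap, and the change of 0.96 ± 0.29 was close in size to that in WT mice but did not pass (adjusted p = 0.062). The WT call was lost under 5 alternatives (replicate block, pool as a random block, pools as replicates, hashtag share rule and stricter gates). It was also lost without any 1 of WT IL1β mice 1 and 2 or WT vehicle mice 1, 2 and 4 (adjusted p up to 0.16). In GranP-like cells of Tet2-KO mice Cxcr2 went from 7.35, 6.04, 4.70 and 6.41 to 8.79, 11.2, 8.14 and 8.87 without overlap (0.57 ± 0.17, adjusted p = 0.013), a call lost with the pool as a random block and without Tet2-KO vehicle mouse 3 (adjusted p = 0.061). The mature neutrophil markers moved with these results. In Neut-like cells their summed level ranged from 650 to 2117 CPM in WT vehicle, 2359 to 3669 in WT IL1β, 471 to 3276 in Tet2-KO vehicle and 5342 to 8428 CPM in Tet2-KO IL1β mice. Retnlg, which is also a Neut-like check gene, rose there in Tet2-KO mice (1.63 ± 0.45, adjusted p = 0.041). The sums in GranP-like cells of Tet2-KO mice are those given with Cxcr4. Their part in the result was not tested.

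**Figure D3:**
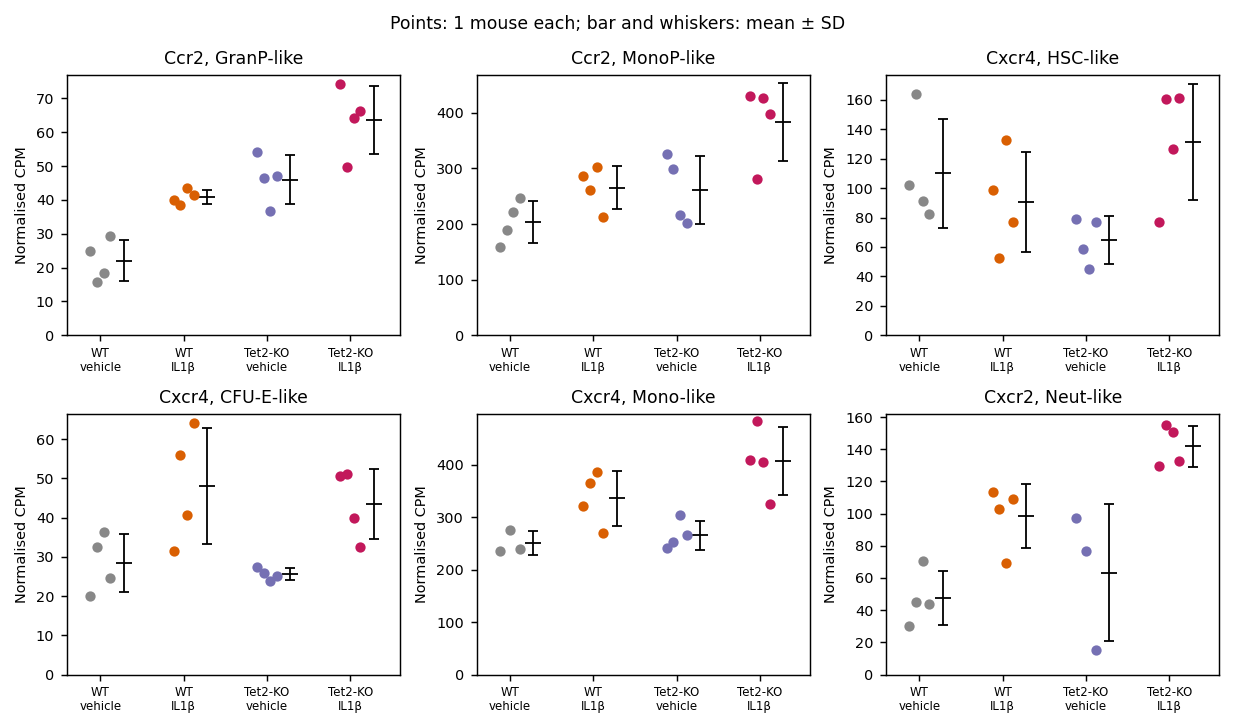
Normalised CPM of chemokine receptors in selected cell types, 1 point per mouse in the 4 groups, with bar and whiskers for mean ± SD. In GranP-like cells Ccr2 separates WT vehicle mice from all others, and in HSC-like cells 3 of the 4 Tet2-KO mice given IL1β lie above all Tet2-KO mice given vehicle for Cxcr4.

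Itga6 rose with IL1β in 5 types in Tet2-KO mice (MPP-like, IMP-like, GranP-like, MonoP-like and MEP-like) and in 2 in WT mice (IMP-like and GranP-like). In GranP-like cells WT mice went from 31.9, 43.0, 39.9 and 38.9 normalised CPM to 55.4, 59.4, 62.0 and 61.3, and Tet2-KO mice from 50.1, 43.2, 36.0 and 38.2 to 68.9, 56.2, 68.5 and 71.6. All 8 IL1β mice were above all 8 vehicle mice. The log2 fold changes were 0.65 ± 0.12 (adjusted p = 6.3e-04, edgeR) and 0.66 ± 0.11 (adjusted p = 1.06e-04), and both calls were kept under all 10 alternatives and with each mouse left out. The neutrophil marker sums of GranP-like cells, given with Cxcr4 and Ccr2, had higher medians with IL1β beside these calls too (149 against 79.7 CPM in WT and 159.5 against 99.9 in Tet2-KO mice).

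In IMP-like cells, the WT values were 33.2, 45.0, 38.1 and 61.0 with vehicle and 112, 72.6, 108 and 52.7 with IL1β (1.08 ± 0.23, adjusted p = 0.0034, edgeR), with 1 IL1β mouse inside the vehicle range. The Tet2-KO values rose from 60.5, 45.2, 34.6 and 44.4 to 114, 81.5, 82.0 and 87.7 without overlap (0.95 ± 0.22, adjusted p = 0.0039). The macrophage marker sum in these cells also moved in Tet2-KO mice without overlap, from 0.00 to 2.84 CPM with vehicle up to 3.85 to 7.50 CPM with IL1β, beside Itga6 and Itgam. Of the IMP-like check genes, Ctsg fell in both genotypes (by 0.87 in WT and 0.51 in Tet2-KO mice on the log2 scale, adjusted p = 5.3e-04 and 0.021), and in Tet2-KO mice Calr fell and Sox4 rose (0.90 ± 0.16, adjusted p = 2.5e-04). The part of these genes in the result was not tested. Each IMP-like call was lost under 1 alternative, the hashtag share rule for WT and stricter gates for Tet2-KO mice. MonoP-like cells of Tet2-KO mice rose from a range of 25.5 to 32.8 to one of 39.8 to 55.4 (0.72 ± 0.17, adjusted p = 0.0065), kept under every alternative. WT MonoP-like cells also did not overlap (21.0 to 30.2 against 30.5 to 42.5) but missed the limit (0.52 ± 0.18, adjusted p = 0.067). In MPP-like cells the 4 Tet2-KO mice went from 66.2, 58.2, 50.7 and 47.7 to 151, 96.2, 132 and 83.1 (0.94 ± 0.25, adjusted p = 0.016), on 4 to 47 UMIs per mouse. The check gene Sox4 rose in the same cells (1.21 ± 0.22, adjusted p = 0.0012), beside Itga6 and Itgam, and its part was not tested. That Itga6 call was lost with DESeq2, the pools as replicates or the hashtag share rule, and without any 1 of Tet2-KO IL1β mouse 3 or vehicle mice 3 and 4 (adjusted p up to 0.083). In MEP-like cells 3 Tet2-KO mice per group were fitted, from 78.2, 41.8 and 70.6 with vehicle to 173, 159 and 123 with IL1β (1.28 ± 0.30, adjusted p = 0.040). It was lost with the replicate block, the hashtag share rule and without the deepest cells, and without any 1 of Tet2-KO IL1β 2 and 3, Tet2-KO vehicle 3 and 4, WT IL1β 2 and WT vehicle 4 (adjusted p up to 0.26).

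Itgam was higher with IL1β in all 8 tested types in both genotypes, with log2 fold changes from 0.69 to 1.48 in Tet2-KO and from 0.30 to 1.63 in WT mice. These types passed the filter on low counts, which a gene can pass through its IL1β mice alone. The shared direction is therefore given as a description. Itgam was called in 4 types, all progenitors and all in Tet2-KO mice, and these calls were kept with no filter on low counts. In GranP-like cells Tet2-KO mice went from 26.3, 26.4, 16.2 and 8.01 normalised CPM to 33.2, 31.2, 35.2 and 32.5 without overlap (0.74 ± 0.21, adjusted p = 0.0078, edgeR), lost only with the pools as replicates. MonoP-like cells went from 11.7, 5.42, 7.47 and 3.73 to 22.9, 23.1, 26.9 and 10.6 (1.48 ± 0.34, adjusted p = 0.0044), with IL1β mouse 4 below the highest vehicle mouse, lost only with stricter gates. In MPP-like cells the values were 19.9, 14.6, 28.2 and 14.9 against 67.0, 49.1, 70.2 and 38.4 without overlap (1.32 ± 0.36, adjusted p = 0.018), on 1 to 24 UMIs per mouse.

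The MPP-like call was lost without the deepest cells and without any 1 of Tet2-KO IL1β mice 2 and 3 or vehicle mouse 4 (adjusted p up to 0.099). In IMP-like cells the Tet2-KO range moved from 5.03 to 22.1 up to 19.3 to 62.5 (1.24 ± 0.36, adjusted p = 0.016), lost without any 1 of Tet2-KO IL1β mouse 3 or vehicle mice 3 and 4 (adjusted p up to 0.070). The WT changes in the same MPP-like and IMP-like cells were 1.63 ± 0.48 (adjusted p = 0.058) and 1.40 ± 0.46 (adjusted p = 0.059), larger in size but on fewer UMIs, and no difference between the genotypes was called. In Neut-like cells, where Itgam is highest, Tet2-KO mice had 443, 360 and 227 with vehicle and 518, 627, 576 and 562 with IL1β, which did not overlap but were not called (0.71 ± 0.22, adjusted p = 0.070), and the WT change was 0.30 ± 0.21. The 4 mature neutrophil markers (none at 0) in Tet2-KO vehicle and IL1β mice ranged in sum from 36.9 to 220 and 90.7 to 936 CPM in MPP-like cells. The ranges were 37.9 to 362 and 57.7 to 514 CPM in IMP-like cells and 21.1 to 49.0 and 36.6 to 225 CPM in MonoP-like cells, and the part of these markers in the result was not tested.

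**Figure D4:**
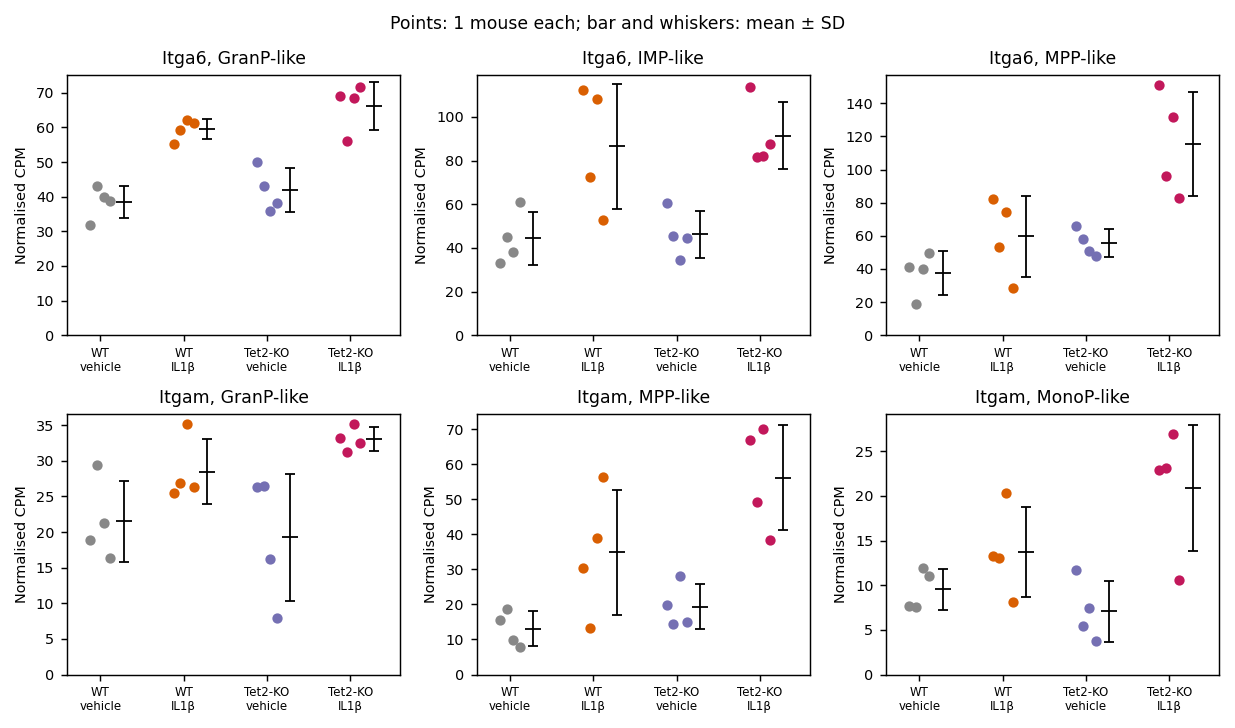
Normalised CPM of Itga6 (GranP-like, IMP-like and MPP-like cells) and Itgam (GranP-like, MPP-like and MonoP-like cells), 1 point per mouse in the 4 groups, with bar and whiskers for mean ± SD. Every IL1β mouse is above every vehicle mouse for Itga6 in GranP-like cells, while the 2 WT groups overlap for Itgam in all 3 types.

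Itgal rose in GranP-like cells of both genotypes and in Baso-like cells of Tet2-KO mice, and its fitted change was above 0 in all 13 tested types in Tet2-KO and in 11 of 13 in WT mice. These types too are only those that passed the filter on low counts, so the direction is a description. GranP-like cells of WT mice went from 25.7, 20.4, 26.2 and 30.3 normalised CPM to 33.0, 36.6, 45.7 and 44.7 without overlap (0.57 ± 0.17, adjusted p = 0.019, edgeR). Those of Tet2-KO mice went from 32.5, 25.3, 24.8 and 26.9 to 40.2, 49.0, 31.6 and 28.1 with overlap (0.42 ± 0.15, adjusted p = 0.037). These calls too stand beside the neutrophil marker sums of GranP-like cells given above, as do those of Itgam and Selplg in Tet2-KO mice. The WT call was lost with the pool as a random block, with the pools as replicates, and without any 1 of WT IL1β 3 or WT vehicle 1 and 3 (adjusted p up to 0.071). The Tet2-KO call was lost under 5 alternatives (those 2, the replicate block, the hashtag share rule and without the deepest cells). The call also failed without any 1 of Tet2-KO IL1β 1 and 2 or vehicle 2, 3 and 4 (adjusted p up to 0.15). In Baso-like cells the Tet2-KO range moved from 89.5 to 136 up to 119 to 184 (0.54 ± 0.16, adjusted p = 0.041), a call lost under 5 alternatives (replicate block, pools as replicates, hashtag share rule, stricter gates and without the deepest cells). It was also lost without any 1 of 9 mice, namely Tet2-KO IL1β 2, 3 and 4, Tet2-KO vehicle 2, 3 and 4, WT IL1β 2 and WT vehicle 1 and 3 (adjusted p up to 0.18).

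Itga4 had 1 call in 30 IL1β tests. Its fitted change was above 0 in 14 of 15 types in Tet2-KO mice (-0.04 to 0.74, median 0.29) and in 10 of 15 in WT mice (-0.51 to 0.38, median 0.11). In CFU-E-like cells of Tet2-KO mice it was 225, 198, 190 and 195 with vehicle and 251.1, 244, 222 and 242 with IL1β, the log2 fold change being 0.24 ± 0.08 (adjusted p = 0.049, edgeR), with 1 IL1β mouse below the highest vehicle mouse. The WT change was -0.04 ± 0.08. The call was lost under 8 of the 10 alternatives (kept with library totals without TMM and with the place of the pool as a block), the most of any call here. The call also failed without any 1 of Tet2-KO IL1β 1, 2 and 4 or vehicle 2, 3 and 4 (adjusted p up to 0.15).

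Selplg was the only receptor with a call in the lower direction and the only one whose fitted change was below 0 in most types, in 11 of 14 in WT and 8 of 14 in Tet2-KO mice. In GranP-like cells of Tet2-KO mice it was 81.0, 71.0, 81.5 and 80.6 normalised CPM with vehicle and 65.5, 66.8, 67.0 and 63.0 with IL1β. The groups did not overlap and the level fell by 0.26 ± 0.10 on the log2 scale (adjusted p = 0.043, edgeR), but WT mice had 59.95, 60.02, 59.2 and 80.1 with vehicle and 55.5, 60.5, 74.0 and 60.2 with IL1β (-0.07 ± 0.11). The Tet2-KO call was lost under 6 alternatives (no filter, library totals without TMM, pool as a random block, pools as replicates, hashtag share rule and stricter gates). It was also lost without any 1 of 9 mice, namely all 4 Tet2-KO IL1β mice, Tet2-KO vehicle 1, 3 and 4, WT IL1β 2 and WT vehicle 2 (adjusted p up to 0.10).

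Cd44 had 1 call, in Plasma-like cells of Tet2-KO mice, from 172, 140, 141 and 146 with vehicle to 295, 347, 232 and 238 with IL1β. The groups did not overlap (0.92 ± 0.23, adjusted p = 0.034, edgeR), on 8 to 91 UMIs per mouse. WT mice had 142, 102, 200 and 173 with vehicle and 232, 213, 308 and 166 with IL1β (0.45 ± 0.22, adjusted p = 0.36). The call was lost under 5 alternatives (no filter, replicate block, pools as replicates, hashtag share rule and without the deepest cells). It was also lost without any 1 of 8 mice, namely Tet2-KO IL1β 1, 2 and 4, Tet2-KO vehicle 2, 3 and 4, WT IL1β 1 and WT vehicle 4 (adjusted p up to 0.21). In the other types the fitted changes of Cd44 in Tet2-KO mice lay between -0.08 and 0.85, with a median over all 15 types of 0.36. In WT mice they ran from -0.62 in MegP-like to 1.27 in cDC-like cells (median 0.35), and none was called (adjusted p = 0.53 and 0.11 for these 2 types, edgeR).

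GranP-like cells, which held 10 of the 28 IL1β calls and more than any other type, also moved in their own check genes. Gstm1 rose in both genotypes (0.41 ± 0.13 in WT, adjusted p = 0.027, and 0.85 ± 0.13 in Tet2-KO mice, adjusted p = 8.1e-05, edgeR), Gfi1 rose in Tet2-KO mice, the granule protease genes Prtn3 and Ctsg fell in both and Cebpe fell in WT mice. The part of such a shift within the gate in the receptor results was not tested. Over the 14 pairs of a type and a genotype with an IL1β call, 4 of 56 sums of markers of other cells (mature neutrophils, macrophages, B cells, endothelium and stroma) did not overlap between vehicle and IL1β mice. These were the neutrophil sums in GranP-like and Neut-like cells of WT mice and the macrophage sums in IMP-like cells of Tet2-KO and CFU-E-like cells of WT mice.

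Between genotypes, 1 of the 108 tests was called with vehicle (0.926%), where 0.033% of all 90976 tests were called, and 1 with IL1β, where 0.217% were called, both of them Ccr2 in GranP-like cells. At an unadjusted p under 0.05 there were 4 with vehicle (3.70%), where 4.22% of all tests were, and 17 with IL1β (15.7%), where 7.77% of all tests were. HSC-like Cxcr4 was lower in every Tet2-KO vehicle mouse than in every WT vehicle mouse, by -0.51 ± 0.26 on the log2 scale, and did not pass (adjusted p = 1.00, edgeR). Itga6 in MPP-like cells of IL1β mice was higher in every Tet2-KO mouse than in every WT mouse (83.1 to 151 against 28.3 to 82.3 normalised CPM, 0.59 ± 0.26, adjusted p = 0.43). The share of separated groups over all genes was not counted. No uncalled pair with separated groups, here or above, is therefore read as a difference. Without TMM the share of all calls that were higher in Tet2-KO mice with IL1β went from 51.3% to 20.0%.

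For none of the receptors was the response to IL1β called different between the genotypes. The interaction term called 0 of 108 tests with edgeR and 0 with DESeq2, where edgeR called 0.0022% of all tests. At an unadjusted p under 0.05 were 4 of the 108 (3.70%) and 4.16% of all tests. Over the 108 pairs the fitted change with IL1β was above 0 in both genotypes in 76, below 0 in both in 16 and opposite in 16. Called in both genotypes were 5 pairs, Ccr2, Itga6 and Itgal in GranP-like cells, Itga6 in IMP-like cells and Cxcr4 in CFU-E-like cells. The 1 pair called in WT alone and the 17 called in Tet2-KO alone are therefore not shown to differ between the genotypes. The same split over all genes was not counted, so these counts only describe the receptors. In data simulated for the same mice, a log2 change of 1 was recovered for 78.5% of genes in GranP-like cells of WT and 89.5% of Tet2-KO mice, but for 39.0% and 41.0% in HSC-like cells, so the rarer types could show fewer changes of this size. Of the genes called in these simulations, 3.68% and 3.76% were false in GranP-like but 7.14% and 8.89% in HSC-like cells. Each setting was drawn once with independent mice, while mice of a pool had a residual correlation of 0.31 in GranP-like cells. The simulations therefore cannot give the recovery or the share of false calls where mice of a pool are alike.

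**Figure D5:**
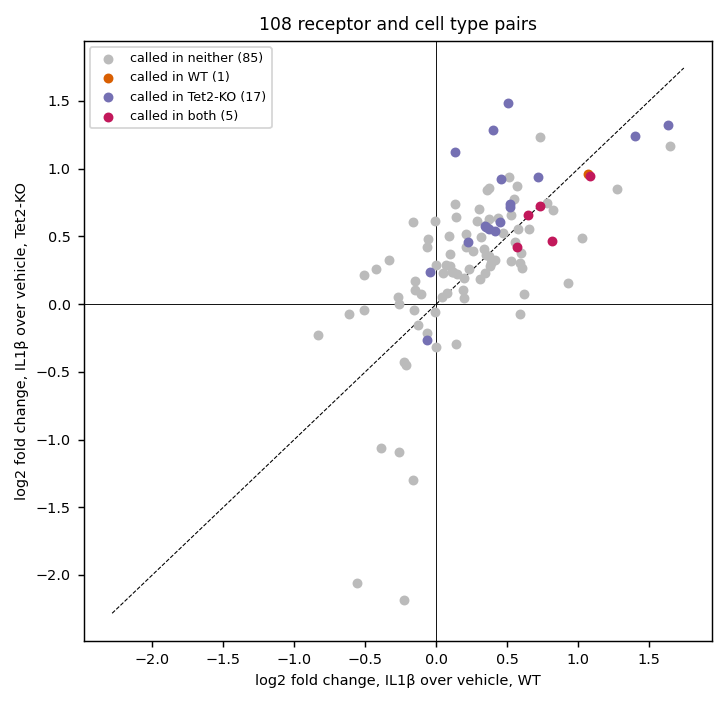
Fitted log2 fold change with IL1β over vehicle in WT (horizontal) against Tet2-KO mice (vertical) for the 108 receptor and cell type pairs, coloured by where the pair was called, with the dashed line of equal change. Most points lie in the upper right (76 of 108), 5 pairs were called in both genotypes, 17 in Tet2-KO and 1 in WT mice alone. The same split over all genes was not counted.

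The other genes of adhesion and homing were taken from a list of 117 by role, of which 114 were in the files and 96 were tested in 1 or more types, in 885 tests. With IL1β, 61 of these tests rose and 28 fell in WT mice (10.1% called), and 77 rose and 27 fell in Tet2-KO mice (11.8%). These shares are near the 8.58% and 11.5% of all tests, with more rises (6.89% and 8.70%, against 3.43% and 4.95% of all tests) and fewer falls (3.16% and 3.05%, against 5.15% and 6.56%). The median log2 fold changes over the tests were 0.08 and 0.09. Between genotypes 0 were called with vehicle by edgeR, 4 rose and 2 fell with IL1β (0.678%, against 0.217% of all tests), and the interaction called 0.

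Ligands were the role with the highest share of rises, 16 of 73 tests in WT (21.9%) and 15 of 73 in Tet2-KO mice (20.5%), where 3.43% and 4.95% of all tests rose. Cxcl2 and Ccl9 gave 7 and 5 of the WT rises and 4 and 6 of the Tet2-KO rises, over types of the same mice. A gene near 0 with vehicle, as Cxcl2 below, can pass the filter on low counts through its IL1β mice alone. These shares are therefore given as a description. Cxcl2, a CXCR2 ligand, had 2 UMIs in all HSC-like cells of the WT vehicle mice and 91 in those of the WT IL1β mice, and 2 against 241 in Tet2-KO mice, and was called in both (adjusted p = 0.011 and 4.1e-04, edgeR). In MPP-like cells it had 1 UMI in each vehicle group against 89 and 238. The mature neutrophil marker sums of HSC-like cells are given with Cxcr4 for both genotypes. In Tet2-KO mice their medians were 44.9 CPM with vehicle and 96.3 with IL1β, and in MPP-like cells 83.8 and 157 CPM. The part of these markers in the Cxcl2 results was not tested. Ccl9 rose in GranP-like cells of Tet2-KO mice from 92.1 ± 6.60 to 178 ± 18.0 normalised CPM (SD, n = 4, log2 fold change 0.95, adjusted p = 1.0e-05).

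Of the adhesion partners, Vcam1, the counter-receptor of the Itga4 and Itgb1 pair, rose in GranP-like cells in both genotypes. In WT mice it went from 38.9 ± 14.7 to 96.3 ± 24.5 normalised CPM (1.44 ± 0.30, adjusted p = 0.0018, edgeR), and from 29.2 ± 16.5 to 85.3 ± 16.6 in Tet2-KO mice (1.51, adjusted p = 3.7e-04). The neutrophil marker sums and check genes of GranP-like cells, given above, also moved with IL1β. Their part was not tested for Vcam1, or for Ccl9, Itgb3, Itgb7 and Rgs10 in these cells. The immunoglobulin, sialomucin, junction and tetraspanin proteins, the role that holds Vcam1, had 9 rises and 6 falls of 158 tests in WT (9.49% called) and 18 rises and 2 falls in Tet2-KO mice (12.7%), near the share of all tests in both. The tetraspanin gene Cd63 fell in 5 types in WT mice (by 0.59 to 1.81 on the log2 scale) and in MonoP-like cells of Tet2-KO mice (by 1.09). Selp, which encodes P-selectin, the partner of PSGL-1, rose in HSC-like cells from 14.96 ± 11.4 to 82.7 ± 24.9 in WT and from 29.7 ± 26.3 to 103 ± 32.8 in Tet2-KO mice (adjusted p = 9.0e-04 and 0.0058). The neutrophil marker sums of these HSC-like cells are given with Cxcr4, and their part in the Selp result was not tested. Selectins and the enzymes that make their ligands had 8 rises and no fall in 85 tests in WT (9.41% called, near the share of all tests), and 13 rises and 3 falls in Tet2-KO mice (18.8%, above it). Integrin chains had 6 rises and 1 fall of 72 tests in each genotype (9.72%), near the share of all tests in both, with Itgb3 higher (0.95) and Itgb7 lower (-1.43) in GranP-like cells of Tet2-KO mice.

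Chemokine and lipid receptors had 2 rises and 1 fall of 47 tests in WT (6.38%), and 5 rises and no fall in Tet2-KO mice (10.6%), both near the share of all tests. Ccr1 rose in Mono-like cells of WT mice (1.62 ± 0.40, adjusted p = 0.029, edgeR) and in MonoP-like cells of Tet2-KO mice (2.21, adjusted p = 0.0059). The signalling genes had 10 falls and 7 rises of 166 tests in WT (10.2% called) and 13 falls and 8 rises in Tet2-KO mice (12.7%), near the shares of all tests, among which falls also outnumbered rises. Gate or check genes of the cell types made up 6 of the 10 WT falls (Ctsg and Elane, which encode granule proteases) and 7 of the 13 Tet2-KO falls (the same pair), and 4 and 2 of the rises, while Rgs10 gave 4 and 5 of the falls. Rgs10, which shortens G-protein signals, fell in GranP-like cells from 41.6 ± 5.45 to 19.4 ± 1.21 normalised CPM in WT (adjusted p = 4.9e-04) and from 47.4 ± 14.97 to 23.6 ± 4.07 in Tet2-KO mice (adjusted p = 1.5e-04). It also fell in CFU-E-like and Baso-like cells of both genotypes. The activation and migration machinery had 13 rises and 9 falls of 284 tests in WT (7.75%, near the share of all tests) and 12 and 7 in Tet2-KO mice (6.69%, below it), and medians of 0.01 and -0.00.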

How the data were processed

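UMI counts were deposited by the authors as 1 matrix for each of 8 single-cell 3′ mRNA libraries and 8 hashtag libraries (per the labels, Cell Ranger 3.1.0, mm10 and Seurat 3.2.3), raw and not normalised. Barcodes with at least 750 genes and at most 10% mitochondrial UMIs were kept, assigned to mice by HTODemux (Seurat 5.3.0, seed 42), and left out where they carried 2 hashtags (3938) or none (33083). Those with none were kept in the alternative with the pools as replicates. Doublets of 1 mouse were not called. Cells meeting the markers of exactly 1 type were used, 4699 meeting more were left out, and UMI minimums per gate were set after the data were seen. Counts were summed per mouse and type (at least 10 cells) and tested with edgeR 4.0.16 (TMM, filterByExpr, quasi-likelihood F test, 4 group means, all 16 mice) in types with at least 3 such mice in each group, with Benjamini-Hochberg adjustment over the genes of a type. DESeq2 1.42.0 and limma 3.58.1 (R 4.3.3) gave 1 alternative each, and edgeR gave the others and the fits with a mouse left out. The permutation tests were computed with numpy 2.4.6 and the sums of counts with scipy 1.17.1 (Python 3.11.15). The SE of an edgeR log2 fold change was worked back from that change and its F statistic, so it holds no information beyond the p-value. The edgeR script was tested on simulated counts, with each mouse drawn independently and no pool effect. Members, gene lists, tests and alternatives were chosen with earlier results of these data known. The text names all 9 receptors, up to 4 listed pathway genes per direction, type and comparison with the greatest fold change among those past the threshold, and the 3 genes most like each receptor. Shares of cells and UMI totals carry counting error, and UMIs per mouse and type ranged widely, so rare types have less power.

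Summed levels of marker lists for 4 other kinds of cell that the preparation could hold (mature neutrophils, macrophages, B cells, endothelium and stroma) were compared in every type and genotype with an IL1β call. Sums without overlap are given beside the results, while some that shifted with overlap are not printed. No cells were chosen by these lists. Replicate numbers did not pair the mice: over 24 pairs of mice with the same number in different groups, correlations of deviations from the group mean (median over types) ranged from -0.14 to 0.17, with 3 over 0.1.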

Additional observations from a re-analysis of the deposited data

Results flagged for a closer look

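Of 87 groups of 4 mice behind the called receptor and type pairs, 5 held 1 mouse far from the other 3 by Dixon's criterion, about the 1 in 20 that chance gives. In Plasma-like cells, Cd44 was 172 normalised CPM in Tet2-KO vehicle mouse 1 against 140 to 146 in the others. In GranP-like cells, Cxcr2 was 6.68 in WT IL1β mouse 2 against 8.78 to 9.01, and Itgam was 35.2 in WT IL1β mouse 3 against 25.5 to 26.9. Selplg in GranP-like cells was 71.0 in Tet2-KO vehicle mouse 2 against 80.6 to 81.5, and 80.1 in WT vehicle mouse 4 against 59.2 to 60.02.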

How the results depend on the processing

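No call changed direction under any alternative. Against 6 calls with IL1β in WT mice there were 12 with no filter on low counts, 19 with library totals without TMM (an alternative chosen after seeing the data), 10 with the hashtag share rule, and 3 to 8 with 1 mouse left out (3 without WT vehicle mouse 1). Against 22 in Tet2-KO mice there were 11 with the pools as replicates, 12 with stricter gates, under which fewer types and tests could be fitted (78 tests in 11 types), and 10 to 29 with 1 mouse left out. Between genotypes with vehicle, the 1 call became 0 with the pool as a random block, the pools as replicates or stricter gates, and 0 to 1 with 1 mouse left out. With IL1β, the 1 call became 2 with DESeq2 or the place of the pool as a block, 5 with no filter, 0 with library totals without TMM, the pool as a random block, the pools as replicates or stricter gates, and 0 to 2 with 1 mouse left out. The interaction gave 0 throughout. Counts over all tests under these alternatives are given only for library totals without TMM with IL1β, above, so the counts here only describe the receptors. Against 20 resolved pairs of neighbours in the orders of types there were 12 with stricter gates. The types were ordered anew there, so the pairs differ, and how many of the 20 stayed resolved was not counted. Apart from the fewer tests with stricter gates, the cause was not tested.

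The mouse numbers were not shown to pair the mice (4 of 16 mice correlated best with their own number). With the replicate block the counts were 6, 20, 1, 1 and 0 in the order above, and 6 of the 30 calls were lost. Mice of 1 pool share a library, and their residuals had a correlation of 0.31 in GranP-like cells and of 0.01 to 0.19 in the other types. With the pools as replicates, where cells without a hashtag were also added, 15 calls were lost, and with the pool as a random block 8. The parts of the unit and of the added cells in the 15 were not told apart. DESeq2 gave no adjusted p for Itgam in MPP-like and MonoP-like cells, and the calls in MPP-like and MEP-like cells and for Itgam in IMP-like cells had no value with stricter gates. Depth limits the rare types most, where a receptor could hold as few as 1 UMI per mouse.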

Other observations

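Beside the receptors, genes of the homing list differed between genotypes in the mice given IL1β in 6 tests. In Neut-like cells Fyb, an adaptor of integrin activation, and S1pr4, a sphingosine phosphate receptor, were higher in Tet2-KO mice (0.92 and 0.81 on the log2 scale, adjusted p = 0.014 and 0.038, edgeR), and Itga2b, the platelet integrin chain, was lower (-1.93, adjusted p = 0.034). In this comparison 2.55% of all genes tested in Neut-like cells were called, the neutrophil check gene Ly6g was higher in Tet2-KO mice (1.15 ± 0.21, adjusted p = 0.014), and the mature neutrophil marker sums did not overlap (2359 to 3669 CPM in WT and 5342 to 8428 CPM in Tet2-KO IL1β mice). The part of these markers was not tested. Rhoh, a haematopoietic GTPase, was higher in Plasma-like cells (1.00, adjusted p = 0.048). Ccl5, a chemokine of NK and T cells, was higher in NKT-like cells (1.25, adjusted p = 0.0024), but it is a gate gene of that type. Fn1, which encodes fibronectin and is a check gene of Mono-like cells, was lower in CFU-E-like cells (-3.42, adjusted p = 0.048), on 23 UMIs in Tet2-KO and 190 in WT IL1β mice. The macrophage marker sum in these cells was 0.77 to 1.91 CPM in WT and 0.00 to 0.60 CPM in Tet2-KO IL1β mice. These ranges did not overlap, and their part in the Fn1 result was not tested. In NKT-like cells of Tet2-KO mice, Cxcr6 (1.68) and Itgb1 (0.94) rose with IL1β (adjusted p = 0.036 for both). The corresponding interaction terms were not called.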
